A study of Homo sapiens with 5 samples.

Results

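Interferon-stimulated genes encode the antiviral effectors, RNA sensors and protein modifiers that a cell makes after interferon reaches its receptor. A list of 49 such genes was followed in MDA-MB-231 cells given the histone deacetylase inhibitor SAHA. Each gene was represented by the brightest of its probe sets (groups of short probes for a transcript) by mean over all arrays. By this rule 48 of the 49 were measured, among 19775 genes tested in all. IFI30 was not analysed here. RIGI was formerly named DDX58.

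The comparison was between MDA-MB-231 cells exposed to 2 uM SAHA (2 arrays, SAHA 1 and SAHA 2) and the same line exposed to the vehicle DMSO (3 arrays, DMSO 1 to DMSO 3), both for 30 h. MDA-MB-231 is an established human breast cancer cell line of mesenchymal, oestrogen receptor-negative type. SAHA (vorinostat) inhibits histone deacetylases, which take acetyl groups off histone tails and many further substrates. Total RNA was measured on single-colour oligonucleotide arrays, no interferon or virus is named in the labels, and the title states the question as gene expression under the inhibitor. The extraction text speaks of a transfection that nothing else in the labels describes. A single cell line at a single dose and time limits what the groups can model. Separate cultures are not stated for the arrays of a group, and the p-values then reflect only array-to-array spread, possibly technical.

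As background, type I and type III interferons act through the kinases JAK1 and TYK2, which activate STAT proteins. Together with IRF9 these form a factor that binds interferon response elements in the promoters of these genes. Many of them can also be switched on by IRF1, IRF3 or IRF7, and tumour lines often keep some of them on without added interferon.

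Median intensity per array was 88.8 and 91.2 in SAHA and 90.0 to 90.3 in DMSO. Across all genes, arrays of the same group correlated at Pearson's r of 0.997 to 0.999 and arrays of different groups at 0.979 to 0.980, over genes that are not independent replicates. Of 5 markers listed for the line, VIM, CD44, AXL and CAV1 lay at log2 intensities of 12.59 to 14.03, while SPARC (6.13 to 6.16) lay below each array's median over all probe sets. AXL was called lower (-0.33 on the log2 scale, limma adjusted p = 0.0193), and the other markers of the line were not called. Of 7 luminal or epithelial markers, CDH1 was called higher (1.64 on the log2 scale) and ERBB2 (-0.64) and GATA3 (-0.26) lower. PGR (4.41 to 4.62) and FOXA1 (5.08 to 5.34) lay below the array medians, while ESR1 (6.97 to 7.04), GATA3 and ERBB2 lay above them. On the DMSO arrays CDH1 (4.48 to 4.78) and TFF1 (6.37 to 6.42) lay below the medians too. In SAHA, CDH1 (6.49 on SAHA 1) and TFF1 (6.65 on SAHA 2) each lay above the median on a single array. The ESR1 probe set is the brightest of 9 and of a kind that can cross-hybridise. Of 5 leukocyte markers measured, CD14 was higher (0.87 on the log2 scale) and PTPRC lower (-0.34, from log2 levels of 3.41 to 3.87). CD3E (-0.14), ITGAM (-0.05) and LYZ (-0.35) were not called, so CD14 alone among these had a positive log2 fold. The summed leukocyte intensity, which includes CD14, was 482 to 487 in SAHA and 398 to 440 in DMSO, and its part in the results was not tested. DMSO 1 stood apart in the ACTB control, with a 3' minus 5' difference of 3.29, against 2.04 to 2.22 on the other arrays. The 24 poly-A control probe sets were higher in SAHA by a median of 0.39 on the log2 scale. The 5 ribosomal RNA control probe sets were also higher in SAHA, by a median of 1.16 (0.46 to 1.73), each above all DMSO arrays. The part of either control in the results was not tested beyond centring on the poly-A controls, and member calls that centring on these controls ended are given with that value.

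More interferon-stimulated genes fell than rose in SAHA, and those that fell included the log2 folds farthest from 0. By limma with Benjamini-Hochberg adjustment over all 19775 genes and a threshold of adjusted p under 0.05 ("called"), 24 of the 48 were called lower and 6 higher. Together 30 were called, where 29.6% of all genes tested were called in either direction. By direction this was 50% lower, where 15.6% of all genes tested were called lower, and 12.5% higher, where 14.0% of all genes were called higher. These backgrounds include many dim genes, and few members were dim. With dim genes left out, 53.3% of the members kept were called lower, against 26.8% of all genes kept. In that setting 13.3% of these members were called higher, against 22.9% of all genes kept. The excess of lower calls was thus smaller there, and the share of higher calls lay below that of all genes. Of the 48, 12 were lower by at least 2-fold, against 2.54% of all genes, and 2 were higher by at least 2-fold, against 3.21%. The median log2 fold (SAHA minus DMSO) was -0.26 for the members and -0.03 for all genes. Both SAHA arrays lay below all DMSO arrays for 33 members and above them for 11, arrangements seen in 26.0% and 22.1% of all genes, and 4 members overlapped. The set included 4 of the 20 lowest log2 folds among all genes, 6 of the lowest 50 and 12 of the lowest 500. The members were chosen with earlier results of these data known, so these shares and ranks describe the list and do not test it. Dropping the arrays singly left 17 to 20 members called lower and 3 to 5 called higher, with 3 higher when SAHA 1 or SAHA 2 was dropped. With arrays centred on the poly-A controls, which moved the median of all genes to -0.40, 36 members were lower and 3 higher, with a median of -0.64. That is 75.0% of the members lower and 6.25% higher, where 73.6% of all genes were called lower and 6.88% higher. Under this centring the members' share of lower calls thus lay near that of all genes. All 6 uncalled members with positive log2 folds had negative ones there. In RNA from whole cultures, fewer cells that express a gene and less of its RNA per cell cannot be told apart.

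**Figure D1:**
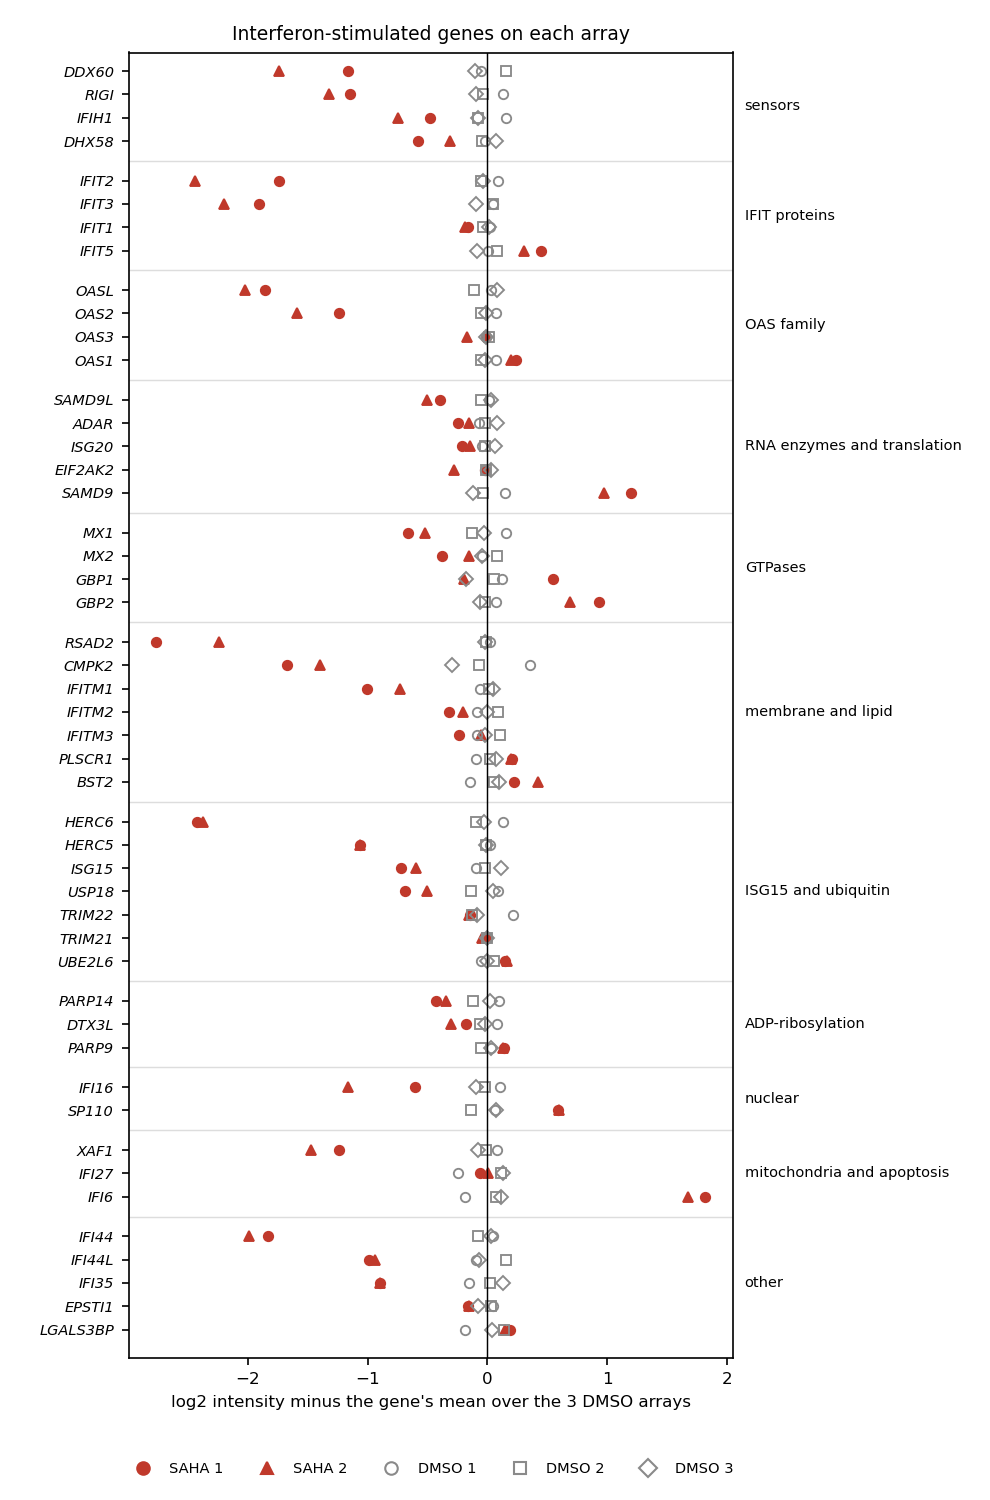
Log2 intensity of each of 48 interferon-stimulated genes on each array, minus the gene's mean over the 3 DMSO arrays, grouped by role. Filled red symbols are the 2 SAHA arrays and open grey symbols the 3 DMSO arrays; both SAHA arrays lie left of all DMSO arrays for 33 genes and right of them for 11.

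**Figure D2:**
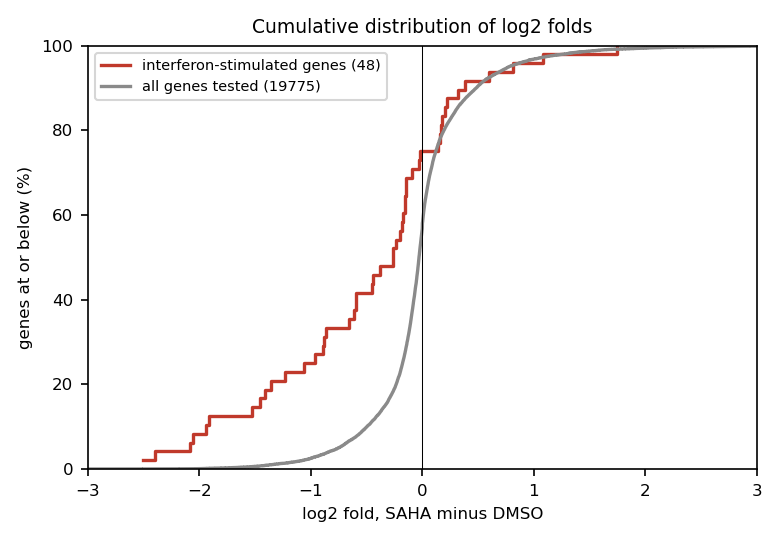
Cumulative share of genes (y axis, percent) at or below each log2 fold of SAHA minus DMSO (x axis, drawn from -3 to 3). The red line for the 48 interferon-stimulated genes lies left of the grey line for all 19775 genes at negative folds, with medians of -0.26 and -0.03.

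All 4 members grouped here as sensors of viral RNA were called lower, where 15.6% of all genes tested were called lower. For 2 of them (IFIH1 and DHX58) the call depended on single arrays. The grouping was chosen for this report. EIF2AK2, which also acts on double-stranded RNA, stood in another group and was not called on its brightest probe set. Of the OAS genes, also grouped apart, OAS2 and OASL were called lower, OAS1 higher and OAS3 not. TLR3, an endosomal sensor of double-stranded RNA listed with the pathway genes, was not called (-0.29, limma adjusted p = 0.119). RIGI, which detects RNA with a 5' triphosphate, had log2 intensities of 9.94 and 9.76 in SAHA, against 11.21, 11.05 and 10.99 in DMSO, a log2 difference of -1.23 ± 0.09 (SE; limma adjusted p = 0.00152). Its other probe sets gave -1.46 and -1.55, so all 3 went the same way by more than 2-fold. DDX60, a helicase that assists RNA sensing, had 7.71 and 7.13 in SAHA and 8.82, 9.03 and 8.77 in DMSO (-1.45 ± 0.20, SE; limma adjusted p = 0.00697). The SAHA arrays of DDX60 differed by 0.58, and both still lay more than 1 log2 unit below every DMSO array. IFIH1 (MDA5), which binds long double-stranded RNA, changed by -0.61 and DHX58 (LGP2), which regulates both sensors, by -0.45. The other probe sets of IFIH1 gave -0.31 and -0.08 and were not called, and the average of all 3 was -0.33. Those other probe sets were dim, at mean log2 levels of 5.03 and 4.74 against 8.42 for the brightest. The call of IFIH1 ended whichever array was dropped (limma adjusted p = 0.0561 to 0.102). That of DHX58 ended without DMSO 1, DMSO 2, DMSO 3 or SAHA 1 (0.0895, 0.0863, 0.105 and 0.0674).

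The IFIT proteins bind viral RNA or translation factors, and the 4 genes, neighbours on chromosome 10, were split into 3 called lower and 1 called higher. IFIT2 had log2 intensities of 9.36 and 8.66 in SAHA, against 11.18, 11.04 and 11.06 in DMSO, a log2 difference of -2.09 ± 0.22 (SE; limma adjusted p = 0.00341). IFIT3 had 11.04 and 10.74 in SAHA, against 12.99, 12.99 and 12.85 in DMSO (-2.05 ± 0.11, SE; limma adjusted p = 0.000768). The second probe set gave -1.14 for IFIT2 and -2.08 for IFIT3. On the brightest probe sets both genes were more than 4-fold lower in SAHA by group means, with no overlap between the groups. With probe sets averaged IFIT2 gave -1.62 and IFIT3 -2.07. IFIT1, the family member that binds RNA caps lacking methylation, had 12.04 and 12.02 in SAHA, against 12.23, 12.16 and 12.21 in DMSO. Its 95% interval on the log2 scale was -0.28 to -0.06, apart from that of IFIT3 (-2.34 to -1.77). IFIT5 went the other way, with 11.19 and 11.04 in SAHA, against 10.74, 10.81 and 10.65 in DMSO (0.38 ± 0.07, SE; limma adjusted p = 0.0204). The call of IFIT1 ended whichever array was dropped (limma adjusted p = 0.0582 to 0.107). That of IFIT5 ended without DMSO 1, DMSO 3, SAHA 1 or SAHA 2 (0.076, 0.0685, 0.106 and 0.0521), and its log2 fold was 0.01 with centring on the poly-A controls.

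The OAS family also split. OAS1, OAS2 and OAS3 are synthetases whose short oligoadenylate product activates RNase L, and OASL is a relative without that activity that enhances RIGI signalling. OASL had log2 intensities of 7.10 and 6.93 in SAHA, against 8.99, 8.85 and 9.04 in DMSO, a log2 difference of -1.94 ± 0.09 (SE; limma adjusted p = 0.000614). OAS2 was lower by -1.42 on its brightest probe set, by -0.89 on the second and by -0.13 on the third, which was not called. OAS3 was not called, at -0.09 with a 95% interval of -0.25 to 0.07, though without SAHA 1 it was called lower (-0.17, limma adjusted p = 0.0381). OAS1 had 6.81 and 6.76 in SAHA, against 6.64, 6.52 and 6.55 in DMSO (0.22 ± 0.05, SE; limma adjusted p = 0.0402). Both SAHA arrays of OAS1 lay above all DMSO arrays, by little. Neither of its 2 probe sets was called in the fit over all probe sets (limma adjusted p over 0.05). The call also ended without DMSO 2, DMSO 3, SAHA 1 or SAHA 2 (limma adjusted p = 0.107, 0.127, 0.148 and 0.0953), and the log2 fold was -0.16 with centring on the poly-A controls.

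Membrane and lipid-linked effectors held the lowest log2 fold of the set. RSAD2 (viperin), a radical enzyme that makes a chain-terminating nucleotide, had log2 intensities of 5.81 and 6.33 in SAHA, against 8.60, 8.57 and 8.56 in DMSO. Its log2 fold was -2.50 ± 0.16 (SE; limma adjusted p = 0.0011), rank 7 from the lowest of all genes, and its second probe set gave -2.49. CMPK2, a mitochondrial nucleotide kinase whose gene lies next to RSAD2 on chromosome 2, had 5.39 and 5.67 in SAHA, against 7.42, 6.99 and 6.77 in DMSO (-1.53 ± 0.22, SE; limma adjusted p = 0.00815). The DMSO arrays of CMPK2 spanned 0.65, and its call was lost when SAHA 1 (limma adjusted p = 0.0874) or SAHA 2 (0.0582) was dropped. IFITM1, a membrane protein that restricts virus entry, changed by -0.87 and was called lower, while IFITM2 (-0.26) and IFITM3 (-0.15) were not called. IFITM2 (limma adjusted p = 0.0545) was called lower in 6 of 17 alternative settings, with an adjusted p of 0.0295 after quantile normalization again. These 3 share sequence, their chosen probe sets are of kinds that can cross-hybridise, and a probe set that the annotation gives to both IFITM1 and IFITM2 had a difference of -0.54. BST2 (tetherin), which holds budding virus at the membrane, was 0.32 (95% interval 0.05 to 0.60) and the scramblase PLSCR1 was 0.20, both above all DMSO arrays and neither called.

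The ISG15 system tags proteins with the ubiquitin-like ISG15, using the conjugating enzyme UBE2L6, the ligase HERC5 and the deconjugase USP18. HERC6, the ligase paralogue beside HERC5 on chromosome 4, had log2 intensities of 7.20 and 7.25 in SAHA, against 9.76, 9.53 and 9.60 in DMSO. Its log2 fold was -2.40 ± 0.08 (SE; limma adjusted p = 0.000491), while its other, dimmer probe set gave -0.18 and was not called. HERC5 was lower by -1.06 ± 0.04 (SE; limma adjusted p = 0.000491), with SAHA arrays at 10.40 and 10.40 and DMSO arrays at 11.48, 11.46 and 11.45. ISG15 itself changed by -0.66 and USP18 by -0.60, whereas UBE2L6 was not called (0.16, 95% interval 0.03 to 0.28). The tripartite motif proteins TRIM21, a cytosolic antibody receptor, and TRIM22 were not called either, at -0.03 and -0.15. The call of ISG15 ended without SAHA 1 (limma adjusted p = 0.0567). That of USP18 ended without DMSO 1, DMSO 3, SAHA 1 or SAHA 2 (0.0518, 0.0672, 0.0918 and 0.0507).

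Of 5 enzymes that act on RNA or translation, 3 were not called. SAMD9 and SAMD9L, restriction factors side by side on chromosome 7, went in opposite directions. SAMD9 had log2 intensities of 10.84 and 10.62 in SAHA, against 9.79, 9.61 and 9.53 in DMSO, a log2 difference of 1.09 ± 0.11 (SE; limma adjusted p = 0.00331), with 1.08 on its second probe set. SAMD9L had 9.16 and 9.05 in SAHA, against 9.57, 9.50 and 9.59 in DMSO (-0.45 ± 0.06, SE; limma adjusted p = 0.00574). The other probe sets of SAMD9L gave -0.52 and -0.26 and were not called. On the brightest probe sets the groups of both genes did not overlap. ADAR, which edits adenosine in double-stranded RNA, was -0.20 and the exonuclease ISG20 -0.18, neither called. EIF2AK2 (PKR), the kinase that halts translation on double-stranded RNA, was not called on its brightest probe set (-0.15), but a probe set dimmer by a mean of only 0.01 was called lower (-0.50, limma adjusted p = 0.031 over probe sets). That pair of probe sets was singled out after the values were seen, and the brightest was called lower without SAHA 1 (-0.28, limma adjusted p = 0.0286).

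The GTPases followed no common direction. MX1, which blocks viral nucleocapsids, was lower by -0.59 and MX2 was not called (-0.27). GBP2, a guanylate-binding protein that attacks pathogen vacuoles, had log2 intensities of 10.39 and 10.14 in SAHA, against 9.53, 9.43 and 9.39 in DMSO, a log2 difference of 0.81 ± 0.09 (SE; limma adjusted p = 0.00431). Both SAHA arrays of GBP2 lay well above DMSO, and its second probe set gave 0.82. GBP1 was the least even of the set, with 10.27 and 9.52 in SAHA and 9.84, 9.77 and 9.54 in DMSO, so SAHA 1 was the highest array and SAHA 2 the lowest. The call of MX1 ended without DMSO 3, SAHA 1 or SAHA 2 (limma adjusted p = 0.0722, 0.117 and 0.0693).

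Among nuclear and mitochondrial products the directions were mixed as well. IFI6, a mitochondrial and endoplasmic reticulum protein that opposes apoptosis, had the highest log2 fold of the set. It had log2 intensities of 10.84 and 10.70 in SAHA, against 8.84, 9.09 and 9.13 in DMSO, a log2 difference of 1.75 ± 0.11 (SE; limma adjusted p = 0.00105). That is 3.36-fold higher, and IFI6 has a single probe set here. XAF1, a pro-apoptotic partner of XIAP, went the other way, with 7.88 and 7.65 in SAHA against 9.21, 9.12 and 9.05 in DMSO (-1.36 ± 0.09, SE; limma adjusted p = 0.00117). The 2 dimmer probe sets of XAF1 gave -0.25 and -0.17 and were not called. IFI27, another mitochondrial product and a common marker of interferon exposure, was -0.02 with a 95% interval of -0.38 to 0.33. SP110, a nuclear body protein, had 9.69 and 9.70 in SAHA, against 9.17, 8.96 and 9.17 in DMSO (0.59 ± 0.08, SE; limma adjusted p = 0.00709), with 4 of its 5 probe sets called higher. IFI16, a nuclear DNA sensor, was lower by -0.89. The call of SP110 was lost when SAHA 1 (limma adjusted p = 0.0673) or SAHA 2 (0.0621) was dropped or with centring on the poly-A controls (0.22, 0.104), and that of IFI16 ended without DMSO 1, DMSO 2 or DMSO 3 (0.096, 0.0999 and 0.0892).

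Of the remaining 5 members of other function and 3 of ADP-ribosylation, 3 and 1 were called lower. IFI44, an antiviral protein of incompletely known function, had log2 intensities of 8.24 and 8.08 in SAHA, against 10.12, 9.99 and 10.10 in DMSO, a log2 difference of -1.91 ± 0.07 (SE; limma adjusted p = 0.000522). Its neighbour and paralogue IFI44L was lower by -0.96, from a dim level of 5.73 to 5.98 in DMSO. IFI35 was lower by -0.89. EPSTI1 (-0.16) and the secreted galectin ligand LGALS3BP (0.17) were not called. The PARP9 and DTX3L pair, which form a complex for ADP-ribosylation and ubiquitination, were 0.14 and -0.24 and not called, and PARP14 was lower by -0.38. The second probe set of PARP14, dim at a mean log2 level of 5.45 against 8.30, gave -0.04. With the probe sets of PARP14 averaged the call ended (-0.21, limma adjusted p = 0.0909). The call of PARP14 ended without DMSO 1, DMSO 3, SAHA 1 or SAHA 2 (limma adjusted p = 0.0625, 0.101, 0.144 and 0.0895).

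**Figure D3:**
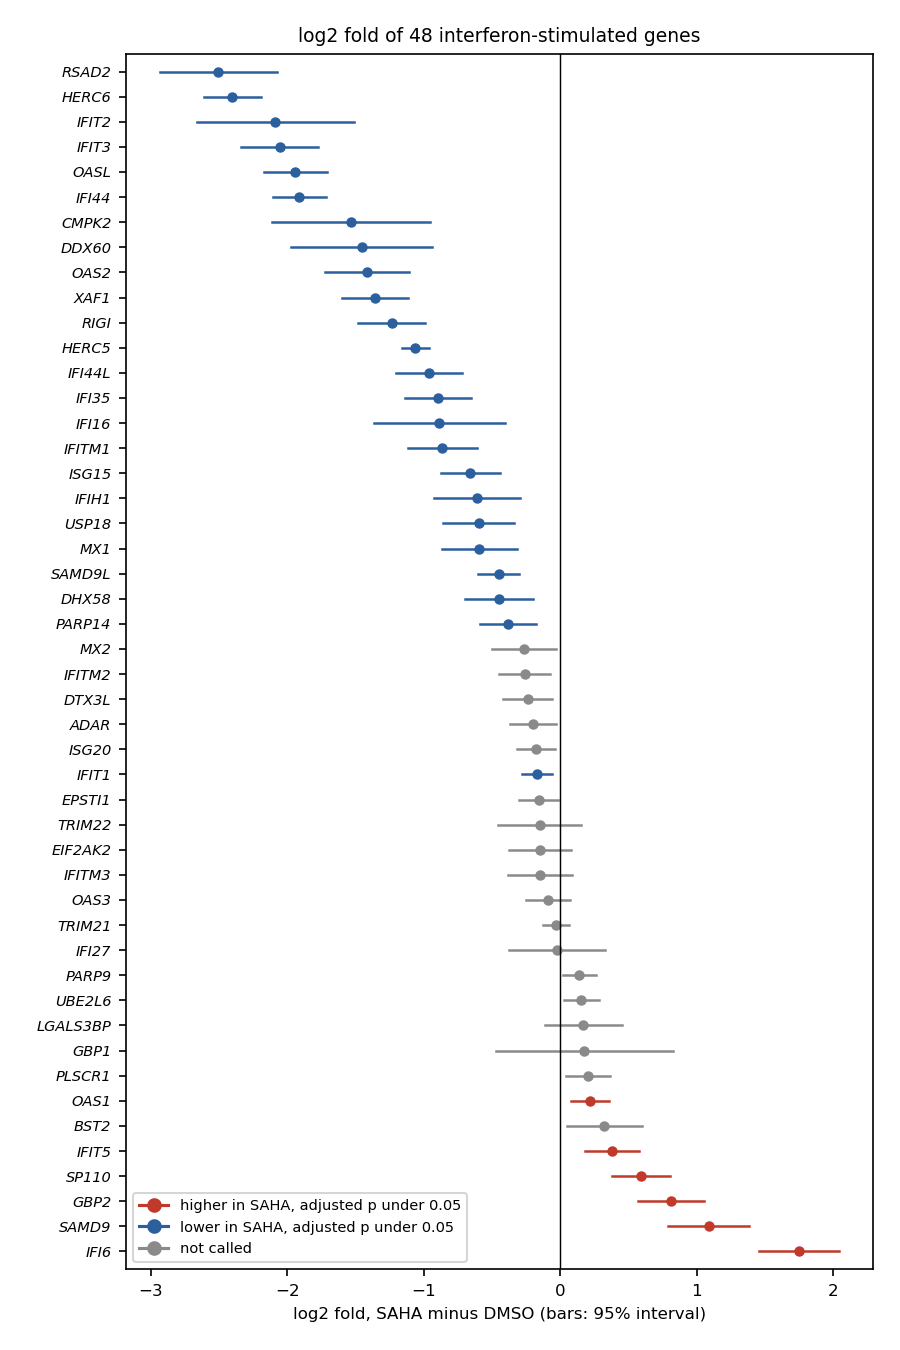
Log2 fold of SAHA minus DMSO for 48 interferon-stimulated genes, ordered from the lowest to the highest; points are the fitted values and bars their 95% intervals. RSAD2 (-2.50) lies at the top and IFI6 (1.75) at the bottom, with 24 genes called lower in blue, 6 called higher in red and 18 not called in grey.

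The genes that went against the set were thus IFI6, SAMD9, GBP2, SP110, IFIT5 and OAS1. IFI6, SAMD9 and GBP2 were called higher in all 18 alternative settings, and the calls of SP110, IFIT5 and OAS1 were not. RIGI, IFIT2, IFIT3, OAS2, OASL, RSAD2, HERC5, HERC6, XAF1 and IFI44 were called lower in all 18. IFITM1, IFI35 and IFI44L were called lower in all 17 settings that held them, and a filter left them out of the remaining setting. When the probe sets of each gene were averaged, HERC6 gave -1.29, OAS2 -0.81 and XAF1 -0.59, all still called lower. The 18 members not called had log2 folds of -0.27 to 0.32, 12 of them below 0 and 6 above. For 15 of these 18 the 95% interval stayed within 0.5 log2 units of 0, and 10 had an unadjusted limma p under 0.05, so small changes were not resolved with 5 arrays. The median absolute difference between SAHA 1 and SAHA 2 was 0.14 for the members and 0.11 for all genes. Of 5 members with a difference above 0.5, IFIT2, DDX60, IFI16 and GBP1 were higher on SAHA 1 and RSAD2 on SAHA 2.

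Probe sets of the same gene were compared because a probe set can miss a transcript or report on another. The 48 members had 86 probe sets among 41091 with a single gene. Fitted over all of these, 34 member probe sets were called lower, against 11.1% of all probe sets, and 10 were called higher, against 11.0%. Of 25 members with several probe sets, 8 had all of them called the same way, 10 had some called and none opposed, and 7 had none called. No member had probe sets called in opposite directions by this limma fit (0 of 25). The like shares over all genes with several probe sets were not worked out. These counts are therefore not read as an agreement particular to the members.

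**Figure D4:**
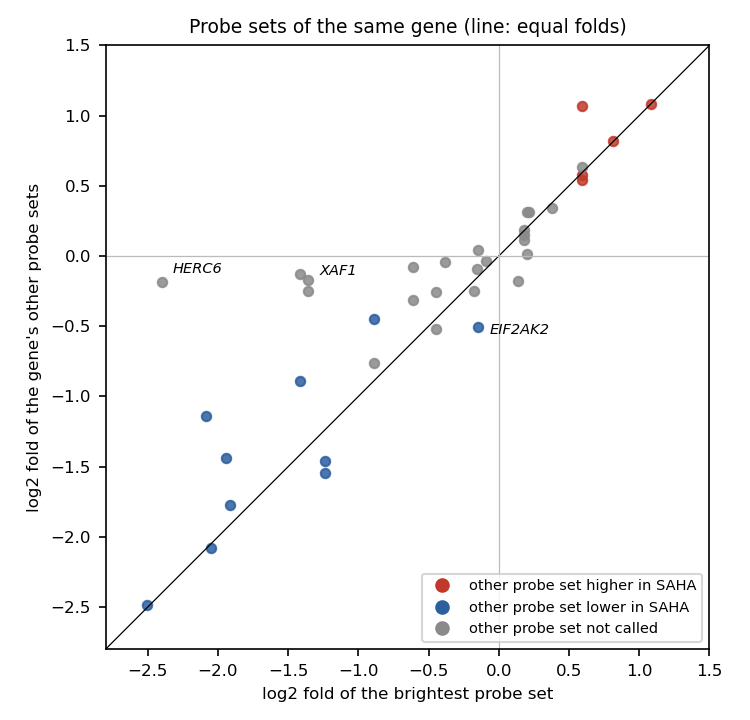
Log2 fold (SAHA minus DMSO) of each member's other probe sets on the y axis against that of its brightest probe set on the x axis, with the line of equal folds. Points of HERC6 (-0.18 against -2.40) and XAF1 lie near 0 on the y axis, and a probe set of EIF2AK2 lies below the line at -0.50.

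Members that lie side by side in the genome were set against each other, using the RefSeq gene order of GRCh38.p14. Of 13 neighbouring pairs within 50 kb, 9 had log2 folds of the same sign and 4 of opposite sign. With 24 of the 48 members called lower, and 12 of the 18 uncalled ones below 0, members taken regardless of position would often share a sign. The share over such pairs was not worked out, so 9 of 13 is not read as neighbours moving together. IFIT2 and IFIT3, IFI44 and IFI44L, CMPK2 and RSAD2, and HERC5 and HERC6 were called lower as pairs. IFIT1 and IFIT5, and SAMD9 and SAMD9L, were called in opposite directions within a pair. OAS1 with OAS3 and PARP9 with DTX3L also differed in sign, without both being called. The second probe set of PARP9, dim at a mean log2 level of 6.06 against 8.73, gave -0.18, the sign of DTX3L (-0.24). Neither probe set of PARP9 was called, so its sign was not settled. These pairs are paralogues in most cases, so the probe sets may share sequence.

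Promoters of the members were searched for the core of the interferon response element, GAAANNGAAA or its reverse complement TTTCNNTTTC, from 250 bases before to 50 after the gene start. RefSeq promoter sequences (GRCh38.p14) matched 39 of the 48 members, and the others were DHX58, IFIT2, OAS2, OASL, MX2, GBP2, IFITM2, USP18 and TRIM22. The core was found in 26 of 39 member promoters (66.7%), and in 2.94% of 15384 promoters of all genes tested. It was found in 11 of 19 promoters of members called lower, 3 of 5 of those called higher and 12 of 15 of those not called. The shorter core TTCNNNGAA of the gamma interferon activation site, which reads the same on both strands and may overlap the other, was found in 9 of 39 member promoters (23.1%) and in 6.95% of those of all genes tested. Matches describe letters in this window only.

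The 4 promoters printed here show the core in genes that moved in either direction, though IFIT3 and IFI44 were picked for holding it. The promoters of IFIT3 (chr10:89327747-89328046, plus strand) and IFI44 (chr1:78649539-78649838, plus strand) belong to the lowest log2 folds among called members with a matched sequence holding the core. Those of IFI6 (chr1:27672143-27672442, minus strand) and SAMD9 (chr7:93117930-93118229, minus strand) belong to the called members with the highest log2 folds. Each is written 5' to 3' on the gene's strand, with the core in capitals; in IFIT3 and IFI44 the capitals are its reverse complement.
IFIT3: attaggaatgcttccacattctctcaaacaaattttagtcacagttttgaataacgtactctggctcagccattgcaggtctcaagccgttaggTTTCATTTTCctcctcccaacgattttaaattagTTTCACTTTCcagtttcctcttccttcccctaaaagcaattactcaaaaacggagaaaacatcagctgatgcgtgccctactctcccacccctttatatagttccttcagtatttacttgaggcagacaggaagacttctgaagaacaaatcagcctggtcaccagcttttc
IFI44: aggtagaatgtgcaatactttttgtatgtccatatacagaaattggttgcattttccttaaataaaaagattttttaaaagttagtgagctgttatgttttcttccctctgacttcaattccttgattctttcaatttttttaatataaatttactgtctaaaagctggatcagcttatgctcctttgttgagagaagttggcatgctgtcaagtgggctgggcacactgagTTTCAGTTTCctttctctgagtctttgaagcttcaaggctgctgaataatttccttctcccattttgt
IFI6: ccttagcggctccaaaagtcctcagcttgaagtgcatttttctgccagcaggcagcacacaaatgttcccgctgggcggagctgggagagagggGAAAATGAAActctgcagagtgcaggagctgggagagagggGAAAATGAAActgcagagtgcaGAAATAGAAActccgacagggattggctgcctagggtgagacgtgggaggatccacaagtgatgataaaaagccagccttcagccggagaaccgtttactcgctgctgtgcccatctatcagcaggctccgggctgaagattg
SAMD9: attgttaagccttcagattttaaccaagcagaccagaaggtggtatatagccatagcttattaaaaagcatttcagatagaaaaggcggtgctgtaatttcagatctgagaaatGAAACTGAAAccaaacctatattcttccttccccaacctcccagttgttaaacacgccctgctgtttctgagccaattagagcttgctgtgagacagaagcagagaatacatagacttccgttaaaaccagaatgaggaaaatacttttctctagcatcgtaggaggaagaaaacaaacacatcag
IFIT3 (-2.05) and IFI6 (1.75) thus hold 2 and 3 matches within a like distance of the start, at 156 and 122 bases before it in IFIT3 and at 156, 115 and 93 bases before it in IFI6. IFI44 (-1.91) holds 1 match 18 bases before the start and SAMD9 (1.09) holds 1 match 136 bases before it. RSAD2 and HERC6, with the lowest log2 folds, hold 0 matches in this window. A single start per gene was searched, so a core near another start would be missed. The annotated span of RSAD2 overlaps that of CMPK2.

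Pathway genes outside the set were called in both directions. Of 33 listed, 31 were measured, and 5 were called lower and 4 higher, shares near those of all genes tested (15.6% and 14.0%), with a median log2 fold of -0.13. The ligands IFNB1, IFNE, IFNK, IFNG and IFNL1 lay at log2 intensities of 3.33 to 5.62 on all arrays, below each array's median of 6.47 to 6.51, and 0 of 5 were called (limma, 0 at an unadjusted p under 0.05). Of 6 receptor chains, IFNGR1 was called higher (0.38), but its brightest probe set without shared sequence gave -0.00397. TYK2, a receptor-associated kinase, had 9.14 and 9.22 in SAHA, against 9.62, 9.65 and 9.57 in DMSO (-0.44 ± 0.05, SE; limma adjusted p = 0.00452), while JAK1 was 0.02 and JAK2 -0.21. The only probe set of TYK2 is of a kind that can share sequence. JAK2 was called lower without SAHA 1 (-0.39, limma adjusted p = 0.0212).

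IRF9, the DNA-binding partner of activated STAT proteins, had log2 intensities of 8.57 and 8.73 in SAHA, against 9.45, 9.59 and 9.51 in DMSO, a log2 difference of -0.87 ± 0.07 (SE; limma adjusted p = 0.00196). IRF1, a related activator, went the other way (0.37), without overlap between the groups. IRF7 was -0.51 and not called (limma adjusted p = 0.0774), though it was called without SAHA 2 (-0.75, 0.0293), and IRF3 was 0.16. SOCS1, a feedback inhibitor of JAK kinases, was called lower on its brightest of 4 probe sets, with 6.01 and 5.84 in SAHA against 7.19, 7.24 and 7.39 in DMSO (-1.35 ± 0.09, SE; limma adjusted p = 0.00113). The average of the SOCS1 probe sets was -0.44, the brightest is of a kind that can share sequence, and its level was dim (percentile 38.2 of all genes). PIAS1, an inhibitor of STAT binding, was called higher (0.33, or 0.20 with probe sets averaged) and SOCS3 was not called (-0.19). Among genes of nucleic acid sensing, the DNA sensor CGAS (-0.45) and its adaptor STING1 (-0.16) were called lower and the adaptor TICAM1 higher (0.29), and MAVS, through which RIGI and IFIH1 signal, was -0.20 and not called. CGAS gave -0.12 without a call both with probe sets averaged (limma adjusted p = 0.179) and without shared-sequence probe sets (0.316), and STING1 gave -0.34 with probe sets averaged. The calls of STING1 and TICAM1 ended without shared-sequence probe sets (0.0509 and 0.054). Calls of IRF1 and PIAS1 ended without DMSO 2, SAHA 1 or SAHA 2 (limma adjusted p of 0.066 to 0.0882 and 0.0558 to 0.0665). Those of STING1 and TICAM1 ended whichever array was dropped (0.0668 to 0.119 and 0.0563 to 0.195), and that of CGAS without DMSO 2, DMSO 3, SAHA 1 or SAHA 2 (0.0519 to 0.121). With centring on the poly-A controls IRF1, PIAS1 and TICAM1 gave -0.00133, -0.0406 and -0.0793.

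**Figure D5:**
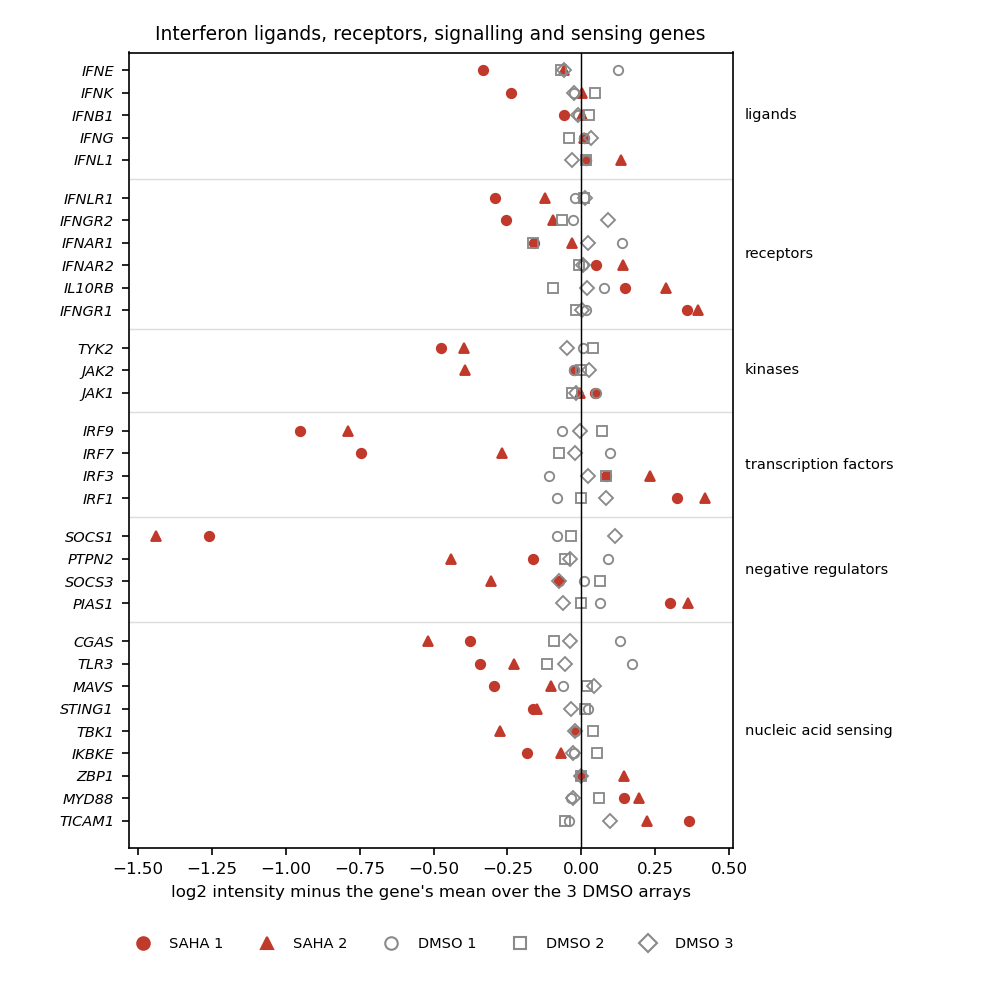
Log2 intensity of 31 interferon ligands, receptors, kinases, transcription factors, negative regulators and sensing genes on each array, minus the gene's mean over the 3 DMSO arrays. Filled red symbols are the SAHA arrays and open grey symbols the DMSO arrays; SOCS1 (-1.35 on its brightest probe set) and IRF9 (-0.87) lie farthest left, and the 5 ligands overlap between the groups.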

How the data were processed

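Per the submitters' processing notes, the authors made the values with RMA in R 2.12. The deposited table holds intensity values on a linear scale for 54675 probe sets on 5 arrays, and log2 was taken here before any test, a step the design had not needed to name because it assumed log2 values. RMA quantile normalization removes a shift common to all transcripts, the deposited table has no detection calls, and the number of arrays limits the precision. Probe sets with several genes (1801), with none given (11721) and controls (62) were left out, and symbols were updated through gene identifiers (41037 of 41091). The brightest probe set stood for each gene.

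SAHA was compared with DMSO with limma 3.58.1 in R 4.3.3 (lmFit and eBayes, two-sided, no covariates), with Benjamini-Hochberg adjustment over 19775 genes. The fit had 3 residual and 1.62 prior degrees of freedom. The fit was tested on simulated data with known changes. The members and lists were chosen with earlier results of these data known, so no list was tested as such. The rule for named genes gave array values for the 8 lowest and 5 highest called members, any called member against the majority, and members not called with a log2 fold over 0.5 or with opposed probe sets (none met either). Alternatives covered scaling, dim genes (below the 40th percentile), probe set choice (all averaged, without shared-sequence _x_at and _s_at names, or brightest in DMSO), variance models, array weights, a threshold of 0.01, each array left out and a replicate block. Poly-A controls of mean intensity over 100 served for centring. Figures were drawn with matplotlib 3.10.9.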

Additional observations from a re-analysis of the deposited data

How the results depend on the processing

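Fits on 4 arrays have fewer residual degrees of freedom, and a lone SAHA array is assumed to vary like the DMSO arrays. Over the fits that drop a single array, 17 to 20 members were called lower and 3 to 5 higher, with medians of -0.35 to -0.25. Over all genes 1985 to 2797 were called lower and 1769 to 2234 higher, and 3 to 5 pathway genes were lower and 1 to 3 higher. The labels give both groups replicate numbers 1 and 2, but nothing says that a number marks a shared batch (r = 0.06 between the differences of number 1 and 2 in SAHA and in DMSO). With the replicate block 15 members were lower and 3 higher, 1316 and 1262 of all genes, and 3 and 0 pathway genes, in a fit with fewer residual degrees of freedom. With centring on the poly-A controls 3 members were higher with a median of -0.64, 14548 genes were lower and 1361 higher (8.55% of called genes higher, against 47.2%), and 24 pathway genes were lower and 0 higher. Under that centring OAS1 gave -0.16, IFNG -0.36, IFNL1 -0.30, IFNAR2 -0.28, JAK1 -0.35, IRF1 -0.00133, PIAS1 -0.0406, TICAM1 -0.0793 and ZBP1 -0.30, all from positive values. In total 7 members and 11 pathway genes turned negative there, 6 of those members uncalled, the uncalled members being BST2 (-0.05), PLSCR1 (-0.17), UBE2L6 (-0.22), GBP1 (-0.20), PARP9 (-0.23) and LGALS3BP (-0.20). The member median was -0.30 with quantile normalization again, -0.31 with centring on ribosomal protein genes, -0.32 with the probe set brightest in DMSO and -0.38 without shared-sequence probe sets (37 members left). Without those probe sets 1 pathway gene was lower and 2 higher (27 left), and IFNGR1 gave -0.00397. At a threshold of 0.01, 1773 genes were lower and 1544 higher, and 3 and 1 pathway genes. Causes of these shifts were not tested. Some of these settings also had fewer arrays, fewer genes or a stricter threshold. The direction of IFI6, SAMD9 and GBP2 and of the 10 members called lower in all 18 settings did not depend on any setting run. The table gives no signal over background, so folds from dim levels (OAS1, CMPK2 and IFI44L lay under the 40th percentile of genes) are uncertain in size.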
